A study of Mus musculus with 40 samples.

Results

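Cultured peritoneal mast cells that had received vehicle alone were compared between 48 h and 6 h. The comparison took 8 of the series' 40 libraries, 4 at 48 h and 4 at 6 h, chosen by their labels and not by any measured value. The cells are peritoneal-derived mast cells (PCMC) of the strain C57BL/6J, that is, mast cells expanded in culture from the peritoneal cavity. The 6 h libraries came from cells kept for 6 h in glutamate-free Tyrode's buffer, a salt solution, with vehicle. The 48 h libraries came from cells kept for 48 h with the vehicle of NS102, and neither their medium nor what the vehicle was is given in the sources used here. Time, medium, vehicle and culture batch therefore cannot be told apart: each difference below is one between these 2 sets of cultures. The series made the 6 h set as controls for 4 mM glutamate and the 48 h set as controls for 50 uM NS102, which blocks kainate-type glutamate receptors. The 4 glutamate libraries at 6 h and the 4 NS102 libraries at 48 h share no library with the vehicle sets, and their own step from 6 h to 48 h is set beside the vehicle step where it bears on a result. The number of mice, their age and sex, and whether the 4 libraries of a set came from separate cultures are not given, so each p-value measures only the spread between these libraries, which may be technical.

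Mast cells are long-lived tissue cells that store proteases, histamine, serotonin and heparin in granules and release them when IgE bound to its receptor FceRI meets antigen, or when basic substances act on the receptor Mrgprb2. Their survival and growth depend on stem cell factor, read by the receptor Kit, and are helped by interleukin 3, read through JAK2 and the transcription factor STAT5. STAT5 raises its own inhibitors of the SOCS and CIS families and survival kinases such as Pim2. A cell moved between a salt buffer and a culture medium also meets other supplies of amino acids, lipids and growth factors, to which cells respond through ATF4, MYC, SREBP and FoxO proteins.

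All 8 libraries carried the transcripts that define mast cells at high level. Across the 8 libraries Cpa3, Cma1, Tpsb2, Fcer1a and Kit were never below 8033, 11846, 31858, 2902 and 236 FPKM (fragments per kilobase of transcript, scaled to the mapped total of the library, a level per length that allows genes to be compared). Neutrophil, fibroblast and keratinocyte markers stood under 1 FPKM in every library. Eosinophil markers summed to 2.78 to 2.99 FPKM at 6 h and 1.97 to 2.59 FPKM at 48 h, with Epx, Ear1 and Ear6 listed at 0 in all 8. Endothelial markers summed to 30.7 to 35.8 and 22.7 to 27.2 FPKM, most of it Pecam1, which leukocytes also express (from 30.6 ± 1.94 to 21.8 ± 1.5 FPKM), with Cdh5, Kdr, Tie1 and Emcn listed at 0. Red cell and platelet markers summed to 178 to 201 and 224 to 268 FPKM, most of it Itga2b (from 185 ± 10.7 to 229 ± 20.9 FPKM). Of the 10 markers in that list 6 were under 1 FPKM in all 8 libraries. The haemoglobin gene Hbb-b1 stood at 0.336, 0.000169, 0.873 and 0.000752 FPKM at 6 h and 6.12, 3.31, 1.27 and 3.44 FPKM at 48 h. Its near-identical copy Hbb-b2 may share its reads. Macrophage and monocyte markers summed to 39.2 to 46.7 FPKM at 6 h and 21.4 to 40 FPKM at 48 h, dendritic cell markers to 36.6 to 41.2 and 14.9 to 23.2 FPKM, T, NK and innate lymphoid markers to 9.42 to 10.9 and 1.91 to 2.82 FPKM, and B and plasma cell markers to 6.02 to 7.07 and 1.99 to 2.66 FPKM. Of the 17 macrophage and monocyte markers listed 12 were under 1 FPKM in all 8 libraries, of the 11 dendritic cell markers 7, of the 11 lymphoid markers 7 and of the 8 B cell markers 5. Pax5, which defines B cells, and Timd4, of peritoneal macrophages, were listed at 0 in all 8, but other members of these lists were detected. Cd3g, Cd3d and Cd79b went from 1.9 ± 0.317 to 0.615 ± 0.121, from 1.01 ± 0.144 to 0.134 ± 0.0788 and from 1.22 ± 0.0894 to 0.474 ± 0.113 FPKM. C1qb went from 1.19 ± 0.558 to 0.798 ± 0.304 FPKM with overlap. Some members had higher means at 48 h, such as Emr1 (0.582 to 0.695 FPKM), Ncr1 (0.0172 to 0.0691 FPKM) and Lyz2, given below. The sex of the mice is not given, but Xist, which female cells make, stood at 1.81 to 2.21 FPKM across the 8 libraries. The Y-linked genes Ddx3y, Eif2s3y, Kdm5d and Uty were at 0 in all 8. Total FPKM was 378212 to 389859 at 6 h and 397388 to 413602 at 48 h, and 8300 to 8492 and 7950 to 8099 genes reached 1 FPKM. The deposited values are not counts and the depth is unknown, but steps between low values put the libraries of a set within 1.33 times (6 h) and 1.25 times (48 h) of each other in relative depth. Pearson correlations of log2 values between libraries were 0.9935 to 0.9973 within the 6 h set, 0.9949 to 0.9976 within the 48 h set and 0.9415 to 0.9531 between the sets.

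Of 8467 genes that reached 1 FPKM in 4 or more of these libraries, 6087 (71.9%) passed the test, 2897 (34.2%) higher and 3190 (37.7%) lower at 48 h. The test was limma on log2(FPKM + 1), two-sided, with Benjamini-Hochberg adjustment over all genes tested and a threshold of 0.05 on the adjusted p. A log2 change here is the mean log2(FPKM + 1) at 48 h minus that at 6 h, which understates the change of genes near 0. In 64.5% of genes the sets did not overlap, 30.8% higher and 33.7% lower at 48 h, and this holds for each gene whose 8 values are printed below except Tph1 and Mitf. With so many genes past the test, a share of a gene group near 34.2% higher or 37.7% lower says nothing particular about it. A change of at least 1 on the log2 scale that also passed was rarer, at 8.88% of genes (247 higher, 2.92%, and 505 lower, 5.96%), and all genes tested had a median log2 change of -0.02. In the treated libraries, NS102 at 48 h against glutamate at 6 h, 8468 genes were tested and 7025 (83%) passed, 4874 (57.6%) higher and 2151 (25.4%) lower, with a median of 0.30 over the genes tested in both steps. The plot of all genes by level shows that large changes reached the most abundant transcripts.

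**Figure D1:**
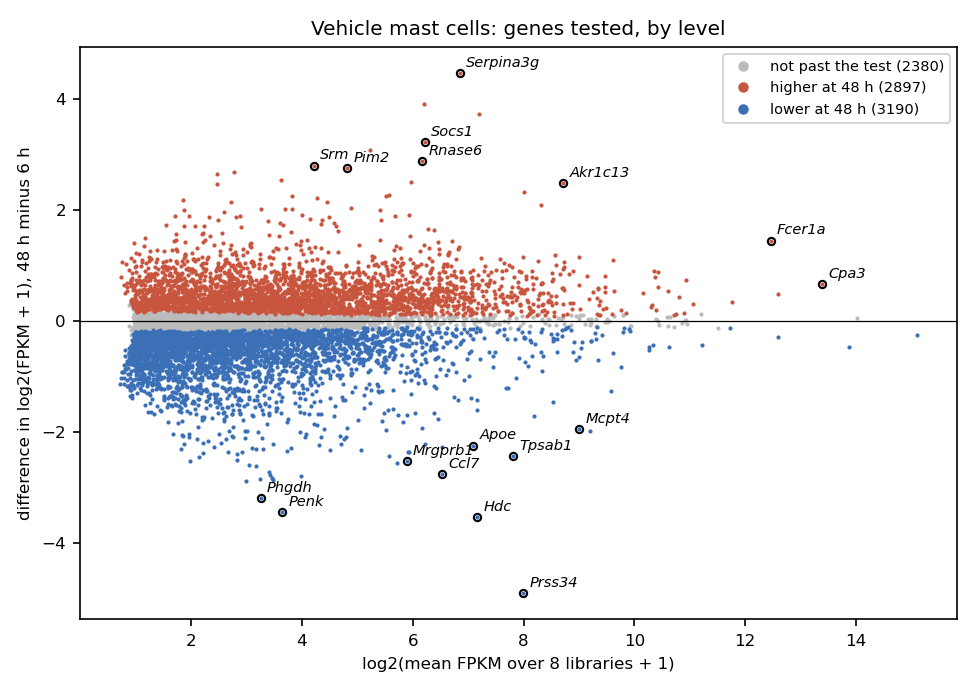
Difference in log2(FPKM + 1) between vehicle libraries at 48 h and at 6 h (y axis) against the log2 of the mean FPKM plus 1 over the 8 libraries (x axis), 1 point per gene tested; colours show the 2897 genes higher, the 3190 lower and the 2380 not past the test. Prss34 lies lowest and Serpina3g highest, and Fcer1a and Cpa3 rose at the right-hand end among the most abundant genes.

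Granule protease transcripts were mostly lower at 48 h, with the carboxypeptidase as the main exception. Of 12 protease and granule matrix genes tested 10 fell and 2 rose, with a median log2 change of -0.73 against -0.02 over all genes. Cpa3, the mast cell carboxypeptidase (chromosome 3, 20115514 to 20142080, build mm9 as for all gene positions here), stood at 8489, 8298, 8033 and 8265 FPKM at 6 h and 13409.8, 12833, 13759.8 and 12449 FPKM at 48 h. Every 48 h library was above every 6 h library, a log2 change of 0.66 (SE 0.041, limma adjusted p = 3.05e-09). Cma1, the chymase partner of Cpa3 in connective tissue mast cells (chromosome 14, 56560287 to 56563498), stood at 17925, 17374, 16879 and 17269 FPKM at 6 h and 13061, 11846, 12765 and 12614 FPKM at 48 h. It went the other way without overlap, with a log2 change of -0.47 (SE 0.041, limma adjusted p = 1.25e-07). Mcpt4, the mouse chymase nearest in function to the human enzyme (chromosome 14, 56678580 to 56681147), fell further, by a log2 change of -1.95, from 856, 798, 777 and 821 FPKM to 210.4, 200.2, 221 and 209 FPKM.

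The tryptases did not move alike. Tpsb2, the most abundant protease transcript measured, went from 38223 ± 1433 to 32259 ± 385 FPKM (SD, n = 4 per set here and below), a log2 change of -0.24. That change did not pass after median centring (-0.16, limma adjusted p = 0.0569) and was larger after length correction (-0.42, limma adjusted p = 3.62e-08). Quantile normalization made it 0. That scaling gives equal values to a gene of equal rank in every library and so cannot show its change. Tpsab1, the other soluble tryptase (chromosome 17, 25480189 to 25482507), stood at 383, 388, 365 and 372 FPKM at 6 h and 73.3, 64.9, 67.5 and 69.96 FPKM at 48 h. The 48 h mean was 5.47 times lower (limma adjusted p = 1.39e-14). Tpsg1, the membrane-anchored tryptase, went from 420.4 ± 2.81 to 226 ± 8.31 FPKM. Ctsg, cathepsin G, went from 36.9 ± 1.92 to 6.56 ± 0.713 FPKM and Mcpt2, a mucosal-type chymase present at low level, rose from 8.3 ± 0.995 to 11.4 ± 0.591 FPKM. Reads of these near-identical neighbours may be shared between genes, so the values of single chymases and of Tpsb2 and Tpsab1 are uncertain relative to each other. Srgn, the core protein on which heparin is built, went from 3516 ± 88.5 to 3250.0 ± 148 FPKM (log2 change -0.11, limma adjusted p = 0.0206). That call was lost in 7 alternative settings, among them median centring (log2 change -0.033) and leaving out replicate 3 at 6 h or replicate 1 or 4 at 48 h.

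The largest fall of all was in Prss34, a tryptase-like protease that basophils and some mast cells make (chromosome 17, 25435338 to 25437106). It stood at 473, 488, 493 and 516 FPKM at 6 h and 15.7, 17.9, 14.5 and 14.2 FPKM at 48 h, a fold of 31.6 (log2 change -4.90, SE 0.062, limma adjusted p = 5.73e-16). The summed level of the basophil markers, which Prss34 shares with mast cell genes such as Ms4a2, was 982 to 1020 FPKM at 6 h and 848 to 926 FPKM at 48 h. Mcpt8, the protease that defines mouse basophils, went from 5.46 ± 0.802 to 2.71 ± 0.816 FPKM, and Cd200r3, an activating receptor of basophils and mast cells, rose from 322 ± 9.04 to 582 ± 23.3 FPKM. The part of other cells in the fall of Prss34 was not tested.

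The enzyme that makes histamine fell, while the first enzyme of serotonin synthesis did not pass the test. Hdc, histidine decarboxylase, which makes histamine (chromosome 2, 126419403 to 126444401), stood at 275, 275, 248 and 256 FPKM at 6 h and 25.7, 21.3, 22.7 and 18.7 FPKM at 48 h. The 4 libraries at 48 h lay far below the 4 at 6 h, and the mean was 11.9 times lower (log2 change -3.53, SE 0.075, limma adjusted p = 5.39e-14). Tph1, which makes serotonin and was chosen after its values were seen, stood at 712, 742, 739 and 726 FPKM at 6 h and 745, 716, 744 and 696 FPKM at 48 h. These ranges overlap and the gene did not pass (log2 change -0.01, limma adjusted p = 0.826), although it did in opposite directions after length correction (0.089, limma adjusted p = 0.0341) and after scaling each library to the same sum (-0.089, limma adjusted p = 0.0214). Ddc, the next enzyme of serotonin synthesis, went from 37.7 ± 0.928 to 19.4 ± 1.4 FPKM, and Slc18a2, the transporter that loads both amines into granules, rose from 173 ± 9.41 to 239 ± 22.1 FPKM.

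Of 14 genes of heparin, histamine and serotonin 8 fell and 4 rose (median log2 change -0.28). Ndst2, the sulfotransferase that heparin of mast cells needs, went from 92.5 ± 5.48 to 42.4 ± 4.52 FPKM. Ext2, a polymerase of the heparan chain, rose from 17.3 ± 0.656 to 28.6 ± 2.72 FPKM. Of 12 lipid mediator genes 6 rose and 3 fell (median log2 change 0.20). Alox5, the 5-lipoxygenase that starts leukotriene synthesis, stood at 249, 235, 214 and 220.5 FPKM at 6 h and 578, 511, 509 and 502 FPKM at 48 h, 2.28 times higher in the mean, with replicate 1 highest at 48 h. Ltc4s, which makes leukotriene C4, and Lta4h, which makes leukotriene B4, rose from 23.02 ± 1.56 to 36.5 ± 1.71 FPKM and from 26.4 ± 1.31 to 42.3 ± 2.73 FPKM. Tbxas1, thromboxane synthase, rose from 52.4 ± 1.55 to 122 ± 11.4 FPKM, while Ptgs1, the cyclooxygenase upstream of it, fell from 54.1 ± 0.865 to 33.7 ± 2.26 FPKM.

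**Figure D2:**
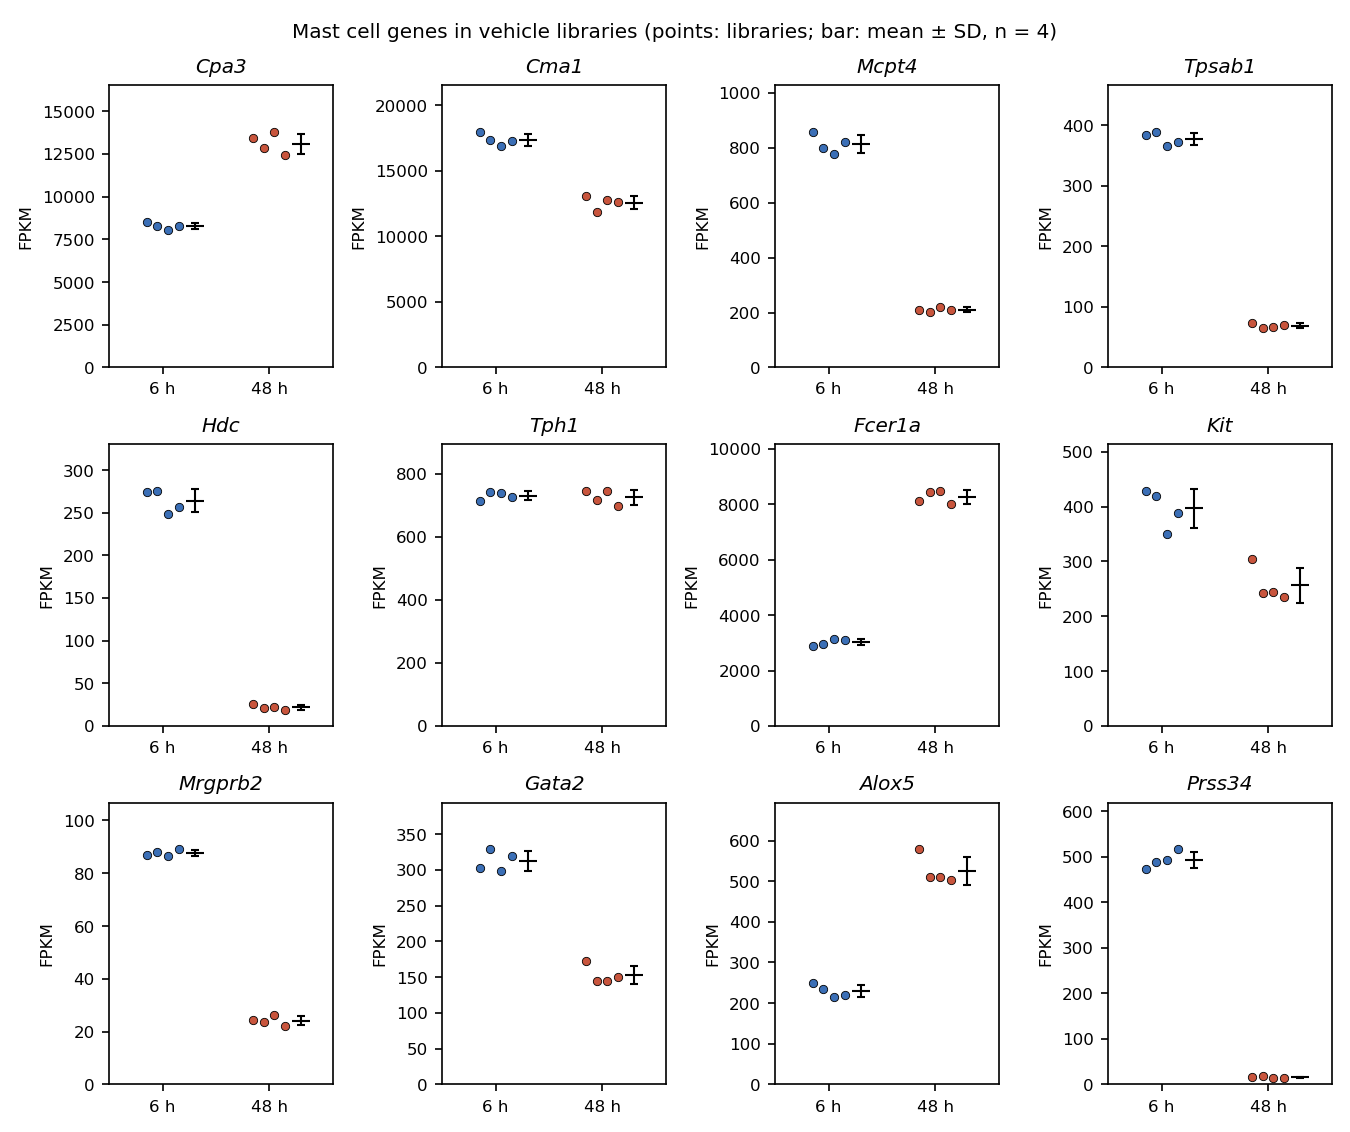
FPKM of 12 mast cell genes (y axes, from 0) in the 4 vehicle libraries at 6 h (blue) and the 4 at 48 h (red); points are libraries and the bar is the mean ± SD. Cpa3, Fcer1a and Alox5 were higher in every 48 h library, Tph1 overlapped, and the other 8 genes were lower in every 48 h library.

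Receptors moved both ways: of 26 receptor genes 15 rose and 9 fell, with a median log2 change of 0.18. Fcer1a, the IgE-binding chain of FceRI (chromosome 1, 175151401 to 175157360), stood at 2902, 2967, 3121 and 3099.7 FPKM at 6 h and 8135, 8449, 8482 and 7997 FPKM at 48 h. The sets were far apart, 2.73 times higher at 48 h (log2 change 1.45, SE 0.039, limma adjusted p = 5.93e-13). Ms4a2, the signalling beta chain, rose from 165 ± 7.43 to 287 ± 14.95 FPKM. Kit, the stem cell factor receptor (chromosome 5, 75971011 to 76052746), stood at 428, 419.8, 349 and 389 FPKM at 6 h and 304, 242, 245 and 236 FPKM at 48 h. It fell without overlap (log2 change -0.63, limma adjusted p = 5.01e-06), and replicate 1 lay above the other 48 h libraries.

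The neighbours Mrgprb2 and Mrgprb1, both Mas-related receptors, were lower. Mrgprb2, the receptor for basic secretagogues, stood at 86.9, 87.9, 86.6 and 88.98 FPKM at 6 h and 24.5, 23.7, 26.2 and 22.1 FPKM at 48 h (log2 change -1.82, SE 0.052, limma adjusted p = 1.08e-12). Mrgprb1, its close relative next to which reads may be shared, went from 100.1 ± 4.97 to 16.7 ± 1.12 FPKM. Ptger3, a prostaglandin E2 receptor that heightens degranulation, rose from 24.6 ± 0.726 to 96.1 ± 5.71 FPKM, and Adora2b, an adenosine receptor, rose from 5.74 ± 0.345 to 24.4 ± 1.57 FPKM. Lilrb4, an inhibitory receptor, rose from 271 ± 3.73 to 571 ± 17.4 FPKM.

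Most signalling genes downstream of FceRI were lower, opposite to Fcer1a itself. Of 19 genes of proximal signalling 14 fell and 1 rose, with a median log2 change of -0.48. Prkcd and Prkcb, protein kinases C, went from 69.8 ± 7.4 to 22.4 ± 2.61 FPKM and from 58.8 ± 8.68 to 23.5 ± 1.71 FPKM. Lat, the adaptor that gathers signalling proteins, stood at 215, 212, 222 and 239 FPKM at 6 h and 129.8, 125, 122 and 123 FPKM at 48 h. Fyn, a Src family kinase, fell from 9.75 ± 0.747 to 3.63 ± 0.476 FPKM, and Fes, the kinase that rose, went from 4.15 ± 0.731 to 6.51 ± 0.328 FPKM. In the treated libraries the same 19 genes went the other way, 16 higher and 3 lower with a median of 0.94. Over all genes that step had 57.6% higher, and a median of 0.30 over the genes tested in both steps. Of 18 exocytosis genes 9 fell and 6 rose: Snap23 and Vamp8, membrane fusion proteins of the granule, rose from 75.98 ± 2.24 to 137 ± 8.63 FPKM and from 257 ± 6.39 to 321 ± 12.3 FPKM, and Stxbp2, which mast cell degranulation needs, went from 34.9 ± 1.08 to 23.5 ± 1.37 FPKM.

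Lineage transcription factors moved both ways. Of 15 tested 8 fell and 4 rose (median log2 change -0.23), and 7 fell after median centring, quantile normalization or length correction. Gata2, which mast cells need for their identity (chromosome 6, 88148657 to 88157026), stood at 303, 328, 298 and 319 FPKM at 6 h and 172, 144, 145 and 151 FPKM at 48 h. Replicate 1 was the highest of the 48 h libraries and still below all 6 h libraries (log2 change -1.03, SE 0.056, limma adjusted p = 8.60e-10). Mitf, its partner in mast cells, stood at 14.8, 14.05, 12.3 and 14.5 FPKM at 6 h and 14.7, 13.7, 13.95 and 13.98 FPKM at 48 h and did not pass (log2 change 0.02, limma adjusted p = 0.807), with a sign that depended on the scaling. Meis2 went from 7.03 ± 0.575 to 2.94 ± 0.178 FPKM, and Bhlhe40, a factor that limits interleukin 10 in several leukocytes, rose from 79.3 ± 5.79 to 138 ± 11.6 FPKM.

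Cytokine and chemokine transcripts were more often lower than higher at 48 h. Of 20 cytokine and chemokine genes tested 13 fell and 5 rose, with a median log2 change of -0.69; 17 more listed genes were below the filter. Ccl7, a monocyte chemokine (chromosome 11, 81859213 to 81861025), stood at 157, 159.6, 164 and 161 FPKM at 6 h and 23.8, 23.8, 22.3 and 21.9 FPKM at 48 h. It was 6.99 times lower with little spread (log2 change -2.75, SE 0.044, limma adjusted p = 3.93e-15). Ccl2, its neighbour and the most abundant chemokine named here, went from 607 ± 16.1 to 373 ± 13.8 FPKM. Ccl3, a chemoattractant for T cells and macrophages, went from 14.4 ± 1.11 to 1.57 ± 0.522 FPKM. Ccl1 stood at 39.3, 44.2, 45.7 and 42.6 FPKM at 6 h and 10.8, 10.6, 5.71 and 10.1 FPKM at 48 h, with replicate 3 lowest. Of the cytokines, Il6 rose from 9.63 ± 0.649 to 24.2 ± 1.85 FPKM and Osm, oncostatin M, rose from 5.13 ± 0.387 to 16.8 ± 0.666 FPKM. Below the filter, and so not tested, Il1b, Tnf and Csf2 went from 1.29 ± 0.351 to 0.211 ± 0.0463, from 0.586 ± 0.14 to 0.142 ± 0.0639 and from 0.669 ± 0.0419 to 0.0742 ± 0.0657 FPKM. Also there, Hbegf and Il13 had higher means at 48 h, from 0.151 to 0.971 and from 0.235 to 0.27 FPKM.

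Early response genes and NF-kB targets were more often lower than higher. Of 24 immediate early genes 13 fell and 8 rose (median log2 change -0.30), and of 16 NF-kB targets 12 fell and 3 rose (-0.53). Egr1, a factor induced within minutes of stimulation, went from 5.35 ± 0.466 to 0.488 ± 0.107 FPKM, Junb from 57.1 ± 1.69 to 23.4 ± 1.85 FPKM and Gadd45b, a stress-induced gene of growth arrest, from 9.63 ± 1.11 to 1.09 ± 0.227 FPKM. Relb and Nfkb2, subunits of the second NF-kB pathway, went from 13.8 ± 1.18 to 2.7 ± 0.437 FPKM and from 9.89 ± 0.508 to 2.6 ± 0.443 FPKM, and Nfkbia, the inhibitor that NF-kB itself induces, from 25.97 ± 1.4 to 17.04 ± 0.123 FPKM. Dusp6, a phosphatase that ERK signalling induces to limit itself, stood at 0.757, 1.14, 0.71 and 0.723 FPKM at 6 h and 9.86, 11.8, 11.5 and 10.1 FPKM at 48 h. Phlda1, also induced by growth factors, rose from 4.14 ± 0.454 to 19.8 ± 1.91 FPKM.

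STAT5 targets were the gene group with the highest median in the vehicle step. Of 13 tested 11 rose and 1 fell, with a median log2 change of 1.12 against -0.02 over all genes. Socs1, which shuts off JAK kinases (chromosome 16, 10783901 to 10785629), stood at 12.5, 13.8, 13.8 and 13.4 FPKM at 6 h and 141, 128, 127 and 136 FPKM at 48 h. The 48 h mean was 9.96 times higher and the spread within each set was small (log2 change 3.22, SE 0.052, limma adjusted p = 3.93e-15). Pim2, a survival kinase (chromosome X, 7455431 to 7460558), stood at 6.54, 5.85, 6.03 and 6.58 FPKM at 6 h and 50.9, 48.1, 49.7 and 44.4 FPKM at 48 h, 7.72 times higher at 48 h (log2 change 2.76, limma adjusted p = 5.98e-14). Ccnd2 and Ccnd3, D-type cyclins that drive the start of the cell cycle, rose from 28.4 ± 1.34 to 74.1 ± 3.32 FPKM and from 39.8 ± 1.7 to 105 ± 5.88 FPKM. Socs2 was the member that fell, from 108 ± 3.9 to 77.98 ± 4.99 FPKM. The factors themselves did not follow: Stat5a went from 14.04 ± 1.33 to 7.53 ± 0.932 FPKM and Stat5b from 22.1 ± 1.54 to 13.8 ± 1.39 FPKM.

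Cish, which encodes the inhibitor CIS and was chosen for its promoter after its values were seen, stood at 23.1, 23.9, 23.02 and 24.5 FPKM at 6 h and 51.4, 45.5, 46.4 and 48.2 FPKM at 48 h (log2 change 0.99, limma adjusted p = 4.88e-10). It is shown because its promoter carries the STAT recognition pattern TTCNNNGAA at 2 places, at and just after the start. The window is RefSeq's and runs from upstream of the start to just after it, build GRCm38.p6, chr9:107296409-107296708, plus strand, with the pattern in capitals.
Cish: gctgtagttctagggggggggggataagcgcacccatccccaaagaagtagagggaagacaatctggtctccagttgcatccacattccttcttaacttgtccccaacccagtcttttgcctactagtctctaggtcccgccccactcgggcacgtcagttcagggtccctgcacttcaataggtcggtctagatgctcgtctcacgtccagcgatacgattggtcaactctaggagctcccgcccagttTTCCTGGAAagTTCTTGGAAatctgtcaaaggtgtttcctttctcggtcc
Of the 9 STAT5 targets tested that have such a window, 2 (22.2%) hold the pattern on either strand, Cish and Socs3, against 8.3% of all 32851 windows. The Socs1, Pim2 and Ccnd3 windows do not hold these letters. TTCNNNGAA reads the same on both strands. A match is a string of letters and not a shown binding site.

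Genes of ribosome production rose with the STAT5 targets. Of 37 tested genes of ribosome biogenesis and MYC targets 32 rose and 3 fell, with a median log2 change of 0.66. Srm, spermidine synthase, a MYC target of polyamine synthesis (chromosome 4, 147965621 to 147968728), stood at 3.91, 4.52, 3.15 and 3.16 FPKM at 6 h and 34.7, 29.3, 30.4 and 31.6 FPKM at 48 h. The 48 h mean was 8.55 times higher (log2 change 2.80, SE 0.09, limma adjusted p = 4.00e-12). Mat2a, which makes the methyl donor S-adenosylmethionine, stood at 15.1, 15.95, 14.9 and 15.2 FPKM at 6 h and 82.4, 80.5, 77.5 and 70.1 FPKM at 48 h. Nhp2, a protein of the snoRNA particles that modify ribosomal RNA, rose from 25.3 ± 1.1 to 51.9 ± 1.11 FPKM and Nme1, a nucleotide kinase, rose from 49.3 ± 1.89 to 99.98 ± 3.99 FPKM. Nop14 and Npm1, both of ribosome assembly, went from 3.47 ± 0.15 to 2.31 ± 0.349 FPKM and from 117 ± 2.7 to 97.3 ± 4.74 FPKM. The E-box CACGTG, which MYC binds, stands in 9 (28.1%) of the 32 members' windows against 7.15% of all windows and 12.4% of those of the genes tested.

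The ribosomal proteins themselves did not move as a group. Of 40 tested 9 rose, 9 fell and 22 did not pass, with a median log2 change of 0.04. That median was -0.04 after scaling each library to the same sum and 1 rose and 29 fell after a correction for transcript length. In the treated step all 40 fell, with a median of -1.41. Rpl10 fell from 1441 ± 48.3 to 1003 ± 43.9 FPKM in the vehicle libraries.

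FoxO targets, which growth factors hold down, were lower: of 20 tested 15 fell and 2 rose (median log2 change -0.50). Trib2, a pseudokinase, went from 10.8 ± 0.313 to 3.23 ± 0.234 FPKM, Pik3ip1, an inhibitor of PI3 kinase, from 76.5 ± 4.41 to 35.8 ± 3.8 FPKM, Bcl2l11, the death protein BIM, from 5.77 ± 0.59 to 1.83 ± 0.169 FPKM and Gabarapl1, which builds autophagosomes, from 115 ± 7.73 to 62.8 ± 2.5 FPKM. Of 27 autophagy genes 15 fell and 7 rose (median -0.33). Sqstm1, the autophagy receptor p62, stood at 647, 639, 611 and 609 FPKM at 6 h and 416, 401, 403 and 376 FPKM at 48 h.

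**Figure D3:**
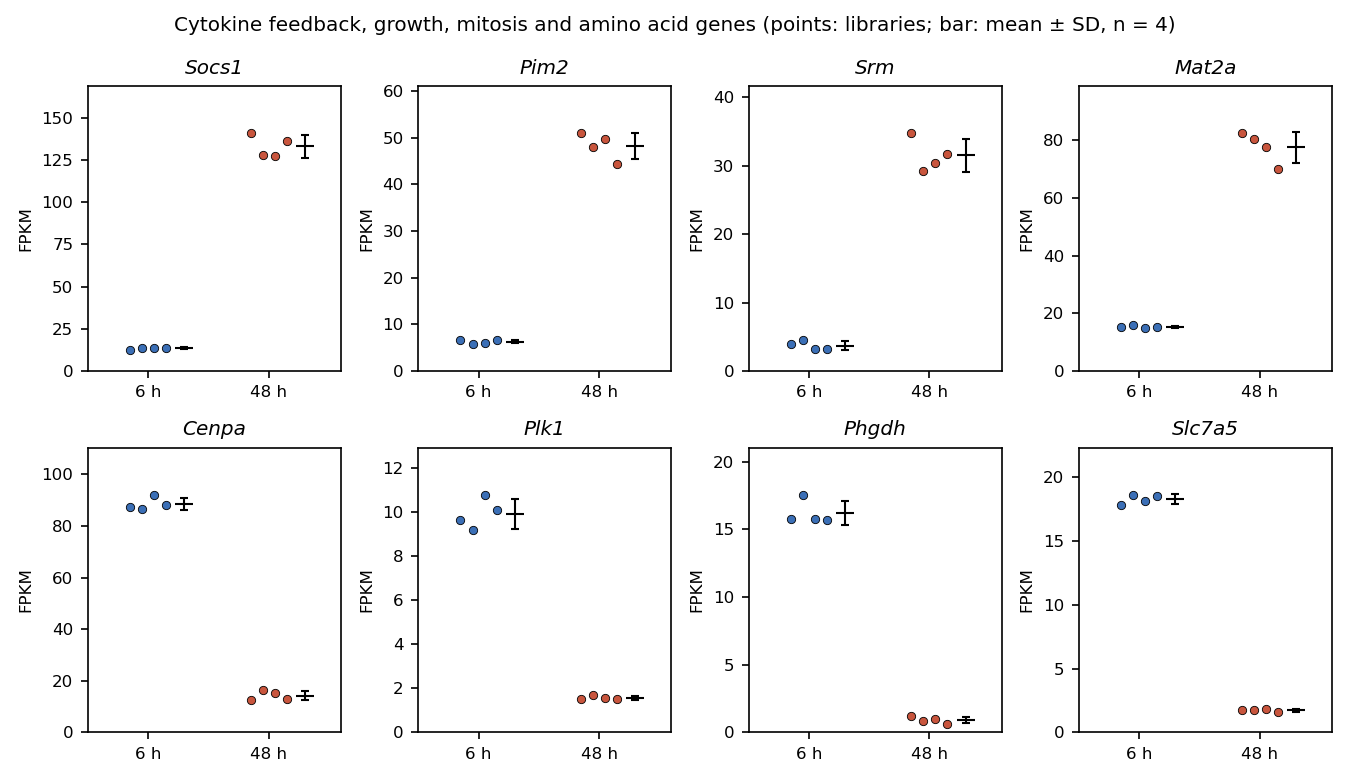
FPKM of 8 genes (y axes, from 0) in the 4 vehicle libraries at 6 h (blue) and the 4 at 48 h (red); points are libraries and the bar is the mean ± SD. Socs1, Pim2, Srm and Mat2a were higher, and Cenpa, Plk1, Phgdh and Slc7a5 lower, in every 48 h library.

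Transcripts of mitosis fell almost without exception, and this was the gene group with the lowest median. Of 39 tested 37 fell, 0 rose and 2 did not pass, with a median log2 change of -1.38. Cenpa, the histone variant that marks centromeres (chromosome 5, 30969274 to 30977199), stood at 87.4, 86.4, 92 and 88.2 FPKM at 6 h and 12.4, 16.3, 15.3 and 12.98 FPKM at 48 h. The 48 h libraries were 6.21 times lower (log2 change -2.56, SE 0.072, limma adjusted p = 9.25e-13). Plk1, the kinase that drives cells through mitosis, stood at 9.63, 9.18, 10.8 and 10.1 FPKM at 6 h and 1.52, 1.68, 1.54 and 1.51 FPKM at 48 h. Ube2c, which directs the destruction of cyclins, went from 43.6 ± 1.91 to 9.59 ± 1.14 FPKM, and Cks2, a subunit of cyclin-dependent kinases, from 153 ± 5.89 to 59.3 ± 1.83 FPKM. The D-type cyclins and the mitotic genes moved in opposite directions in the same libraries. In bulk RNA, fewer cells in mitosis and less of these transcripts per cell cannot be told apart.

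Promoters of this group share a short pattern, TTTGAA, the core of the CHR element through which the DREAM complex holds such genes off in resting cells. Both strands were searched. It stands in 23 (71.9%) of the 32 members' windows, against 17.9% of all 32851 windows and 14.5% of those of the genes tested. Of the 3 windows shown, Ccnb2 was chosen after its values were seen. Plk1 lies at chr7:122159185-122159484, plus strand, Cenpa at chr5:30666636-30666935, plus strand, and Ccnb2, a B-type cyclin, at chr9:70421505-70421804, minus strand (RefSeq, GRCm38.p6), with TTTGAA in capitals.
Plk1: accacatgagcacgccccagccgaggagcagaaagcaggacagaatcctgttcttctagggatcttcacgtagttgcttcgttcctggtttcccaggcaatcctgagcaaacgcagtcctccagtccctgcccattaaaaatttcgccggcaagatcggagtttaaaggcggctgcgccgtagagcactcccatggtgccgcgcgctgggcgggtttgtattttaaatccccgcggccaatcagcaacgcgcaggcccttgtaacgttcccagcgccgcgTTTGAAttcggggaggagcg
Cenpa: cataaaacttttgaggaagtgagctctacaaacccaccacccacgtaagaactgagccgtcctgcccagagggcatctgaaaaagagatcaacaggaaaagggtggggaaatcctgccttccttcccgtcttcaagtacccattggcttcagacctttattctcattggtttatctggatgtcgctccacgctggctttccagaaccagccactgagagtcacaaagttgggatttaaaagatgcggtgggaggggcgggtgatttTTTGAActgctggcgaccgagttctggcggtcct
Ccnb2: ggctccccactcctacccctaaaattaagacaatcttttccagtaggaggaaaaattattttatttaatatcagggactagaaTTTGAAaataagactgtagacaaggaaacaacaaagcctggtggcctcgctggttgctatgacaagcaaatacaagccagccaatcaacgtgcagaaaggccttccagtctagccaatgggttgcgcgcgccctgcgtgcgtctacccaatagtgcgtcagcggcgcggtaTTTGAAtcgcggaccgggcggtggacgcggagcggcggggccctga
Ccnb2 stood at 27.02, 29.97, 27.9 and 27.1 FPKM at 6 h and 6.07, 8.33, 7.42 and 6.54 FPKM at 48 h and holds the pattern at 2 places, and Plk1 and Cenpa hold it once, after the start.

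DNA replication and histone transcripts fell less far. Of 34 replication genes 24 fell and 1 rose (median log2 change -0.40), and of 18 histone genes 14 fell and 3 rose (-0.66). Tk1, thymidine kinase, went from 6.52 ± 0.606 to 1.64 ± 0.21 FPKM and Mcm7, a subunit of the replication helicase, from 12.5 ± 0.804 to 4.83 ± 0.508 FPKM. Tyms, thymidylate synthase, was the member that rose, from 2.61 ± 0.238 to 3.58 ± 0.36 FPKM. Hist2h2aa1, a histone H2A gene, stood at 139, 151, 158 and 159.7 FPKM at 6 h and 29.3, 28.8, 32.8 and 32.03 FPKM at 48 h, and Hist1h1c, a linker histone, went from 54.1 ± 5.85 to 18.9 ± 1.75 FPKM. H3f3a, a replication-independent H3.3 gene, rose from 328 ± 8.36 to 401 ± 15.97 FPKM. Copies of histone genes are close to identical, so reads may be divided between them.

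Amino acid genes were split. Of 22 ATF4 and amino acid response genes 10 fell and 5 rose, with a median log2 change of -0.10, and the largest changes were falls. Phgdh, the first enzyme of serine synthesis (chromosome 3, 98117093 to 98143892), stood at 15.8, 17.5, 15.8 and 15.7 FPKM at 6 h and 1.2, 0.809, 0.956 and 0.639 FPKM at 48 h (log2 change -3.18, SE 0.088, limma adjusted p = 8.63e-13). Slc7a5, the carrier of large neutral amino acids (chromosome 8, 124405045 to 124431586), stood at 17.8, 18.6, 18.1 and 18.5 FPKM at 6 h and 1.73, 1.72, 1.82 and 1.6 FPKM at 48 h. Its partner chain Slc3a2 rose, from 105 ± 3.33 to 142 ± 4.13 FPKM. Ddit3, the stress factor CHOP, fell from 121 ± 3.03 to 25.5 ± 1.86 FPKM, and Cth, which makes cysteine, stood at 0.0585, 0.0246, 0.0426 and 0.174 FPKM at 6 h and 1.88, 1.53, 2.16 and 1.87 FPKM at 48 h.

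Asns, asparagine synthetase and a standard ATF4 target, stood at 5.28, 4.92, 5.26 and 5.01 FPKM at 6 h and 1.24, 1.23, 1.21 and 1.08 FPKM at 48 h. Its promoter is shown because it carries the ATF4 recognition pattern TGATGNAAN, found on either strand in 4 (22.2%) of the 18 members' windows (Asns, Trib3, Nupr1 and Jdp2) against 3.95% of all windows. The window lies at chr6:7693160-7693459, minus strand (RefSeq, GRCm38.p6), with the pattern in capitals.
Asns: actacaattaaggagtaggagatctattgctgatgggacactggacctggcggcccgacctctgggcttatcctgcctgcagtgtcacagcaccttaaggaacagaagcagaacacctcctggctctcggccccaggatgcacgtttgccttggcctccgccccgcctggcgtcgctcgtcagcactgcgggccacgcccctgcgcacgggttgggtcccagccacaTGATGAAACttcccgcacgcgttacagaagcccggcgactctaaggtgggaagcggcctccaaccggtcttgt
In the treated step the fall of this group was larger, with 13 of 21 genes lower, 5 higher and a median log2 change of -1.19. Asns there went from 32.7 FPKM with glutamate at 6 h to 1.07 FPKM with NS102 at 48 h, and its step differed between vehicle and treated libraries (difference of log2 changes 2.55, limma interaction adjusted p = 1.29e-13). For Asns the treated step began at a higher level than the vehicle step and ended near the same level. The 20 aminoacyl-tRNA synthetases, many of them ATF4 targets, had 8 higher and 8 lower.

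Genes of protein folding, protein breakdown and respiration rose together in the vehicle step. Of 29 endoplasmic reticulum genes 20 rose and 5 fell (median log2 change 0.30), of 31 proteasome genes 25 rose and 1 fell (0.39), and of 45 oxidative phosphorylation genes 39 rose and 2 fell (0.37). Sdf2l1, an endoplasmic reticulum chaperone cofactor (chromosome 16, 17130230 to 17132476), stood at 37.5, 40.1, 41.2 and 39.1 FPKM at 6 h and 123, 131, 127 and 121 FPKM at 48 h, and Manf, a secreted stress protein, rose from 12.4 ± 0.506 to 27.3 ± 1.45 FPKM. Hspe1, the mitochondrial chaperonin cofactor, rose from 39.8 ± 2.11 to 97.6 ± 5.68 FPKM. Psmb3 and Psmd6, of the proteasome's core and cap, rose from 118 ± 6.7 to 219.7 ± 10.4 FPKM and from 21.4 ± 0.78 to 40.9 ± 2.36 FPKM. Cycs, cytochrome c, stood at 8.38, 8.93, 9.2 and 9.77 FPKM at 6 h and 22.8, 24.1, 24.8 and 24.6 FPKM at 48 h, and Cox5a, of the terminal oxidase, rose from 191 ± 7.39 to 336 ± 7.95 FPKM. Sdha and Sdhb, of complex II, were the 2 that fell, from 45.9 ± 2.12 to 35.8 ± 3.12 FPKM and from 110.03 ± 2.12 to 84.1 ± 1.02 FPKM.

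A trend with transcript length bears on these groups. Across the 7949 tested genes with a known length, which are not independent replicates, log2 change and length had a Spearman rho of -0.19, and of 0.17 in the treated step, the opposite sign. After a correction for length, added after seeing the data, the medians were 0.31 for endoplasmic reticulum genes (19 higher, 3 lower), 0.21 for proteasome genes (22 higher, 1 lower) and 0.19 for oxidative phosphorylation genes (27 higher, 4 lower). In the treated step the oxidative phosphorylation genes were 29 lower and 9 higher, with a median of -0.25. The cause of the length trend was not tested.

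Lipid and sugar metabolism changed by parts. Of 23 sterol synthesis genes 14 rose and 4 fell (median log2 change 0.33), as in Sqle, squalene epoxidase (from 7.42 ± 0.85 to 13.4 ± 1.53 FPKM), while Srebf2, the factor that drives them, fell from 37.8 ± 2.24 to 13.5 ± 1.95 FPKM. Of 11 fatty acid genes 6 fell and 2 rose: Srebf1, their main factor, went from 13.2 ± 1.3 to 6.74 ± 0.676 FPKM and Lpin1, a phosphatidate phosphatase, from 10.5 ± 1.08 to 2.98 ± 0.654 FPKM. Apoe, the lipid carrier of cholesterol efflux, stood at 257, 233, 199.7 and 206 FPKM at 6 h and 54.7, 41.4, 42.6 and 47.6 FPKM at 48 h. Cpt1a, which brings fatty acids into mitochondria, stood at 19.6, 18.5, 14.5 and 16.98 FPKM at 6 h and 2.07, 1.85, 1.86 and 1.41 FPKM at 48 h. Glycolysis had 8 of 21 genes higher and 8 lower, with Pkm, pyruvate kinase, at 83.5 ± 2.02 FPKM at 6 h and 123 ± 6.86 FPKM at 48 h and Aldoa, aldolase, at 803 ± 15.7 FPKM at 6 h and 494 ± 17.9 FPKM at 48 h. Of 17 hypoxia genes 7 rose and 7 fell: Bnip3, of mitophagy, rose from 29.97 ± 2.06 to 76.7 ± 4.69 FPKM, and Ndrg1 and Plin2, a lipid droplet coat protein, went from 48.8 ± 4.11 to 13.6 ± 0.927 FPKM and from 51.2 ± 0.867 to 16.6 ± 1.47 FPKM.

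Stress and clearance programmes did not share a direction. The NRF2, p53 and lysosome lists had median log2 changes of 0.08, 0.003 and -0.08. Metallothionein and zinc genes mostly rose, and interferon-stimulated genes more often fell. NRF2 and antioxidant genes had 10 of 28 higher and 9 lower: Gpx1, glutathione peroxidase, and Prdx1, peroxiredoxin, rose from 962 ± 26.4 to 1789 ± 42.9 FPKM and from 141 ± 4.51 to 286 ± 11.9 FPKM, and Nfe2l2, which encodes NRF2, fell from 30.2 ± 1.08 to 17.9 ± 1.72 FPKM. Of 21 p53 targets 9 rose and 6 fell: Bax, which opens the mitochondrial membrane in cell death, and Cdkn1a, the cell cycle inhibitor p21, rose from 63.8 ± 3.36 to 132 ± 3.31 FPKM and from 67.9 ± 1.73 to 108 ± 2.23 FPKM, while Trp53 went from 33.8 ± 1.24 to 16.1 ± 0.71 FPKM. Lysosome genes had 15 of 39 higher and 18 lower: Glb1, beta-galactosidase, rose from 30.8 ± 0.314 to 91.02 ± 6.37 FPKM and Atp6v0d2, a proton pump subunit, fell from 78.9 ± 2.51 to 13.9 ± 0.793 FPKM. Of 10 metallothionein and zinc genes 6 rose and 2 fell (median log2 change 0.43). Slc30a2, a zinc exporter of vesicles, rose from 14.5 ± 0.87 to 29.1 ± 1.24 FPKM. Mt1, metallothionein 1, fell from 282 ± 16.98 to 229 ± 23.5 FPKM. Interferon-stimulated genes had 5 of 16 higher and 9 lower (median log2 change -0.24), and 19 more listed genes were below the filter. Bst2, tetherin, was among those that rose, against the list's main direction, from 25.5 ± 0.641 FPKM at 6 h to 38.7 ± 2.64 FPKM at 48 h.

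**Figure D4:**
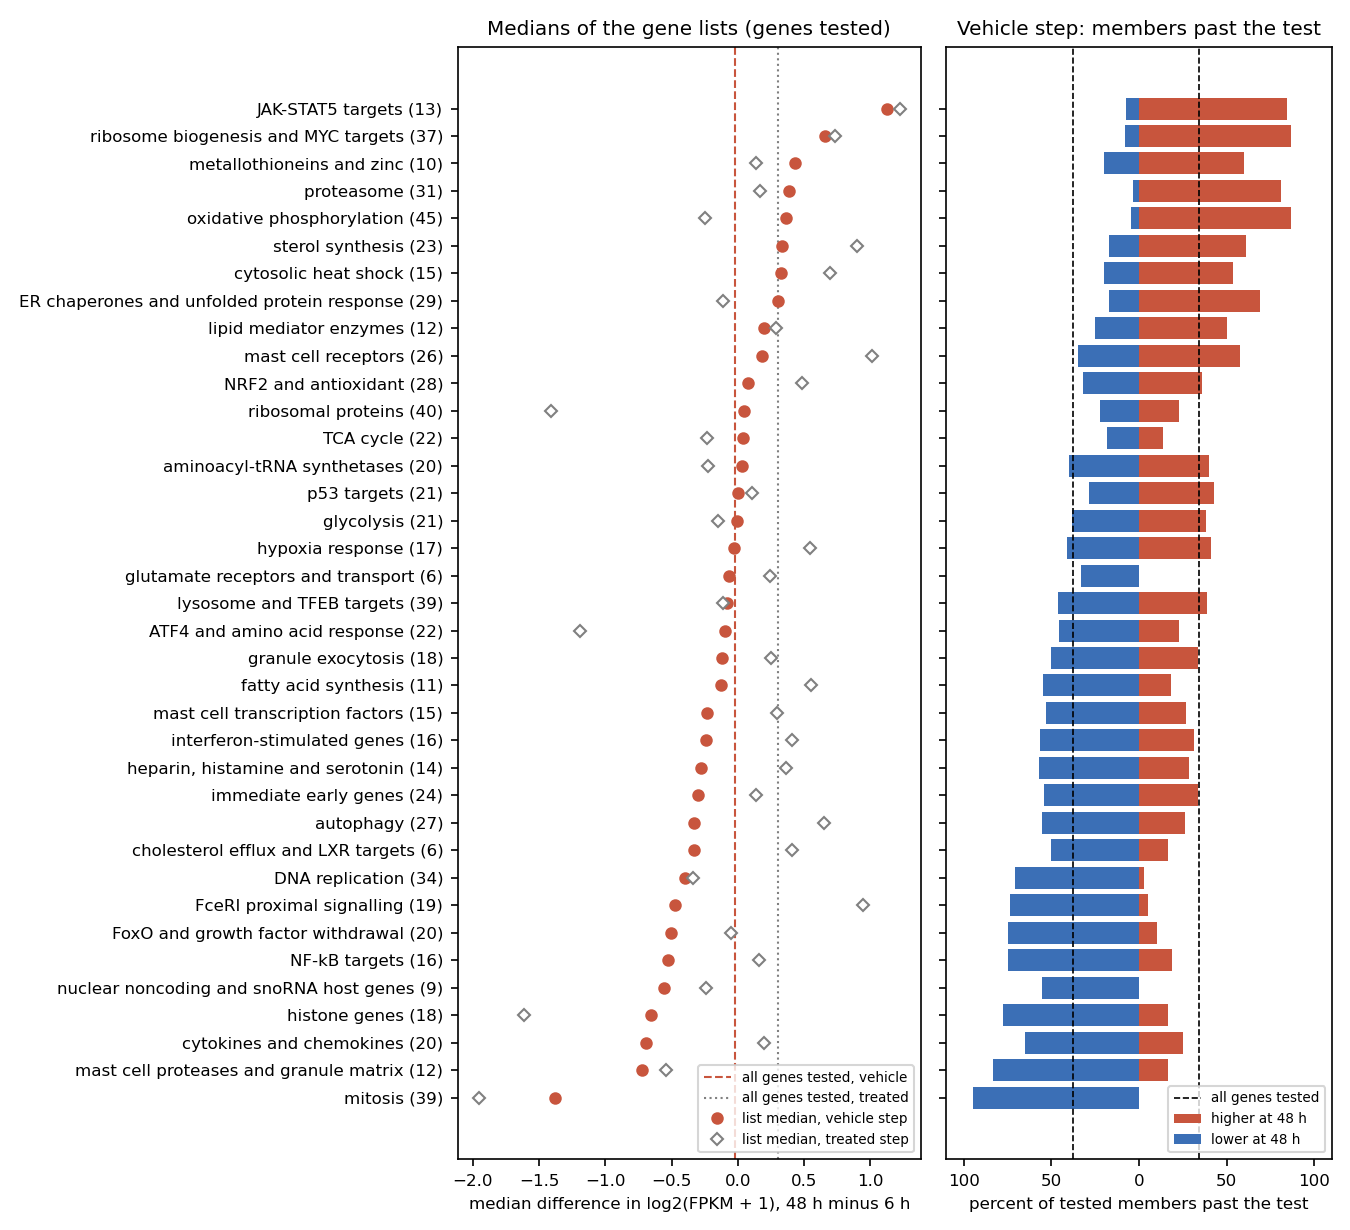
Left: median difference in log2(FPKM + 1) of 37 gene lists (number of genes tested in brackets) in the vehicle step (red circles) and the treated step (grey diamonds), with the medians of all genes as lines at -0.02 and 0.30. Right: percent of tested members higher (red) or lower (blue) at 48 h in the vehicle step, with dashed lines at the 34.2% and 37.7% of all genes; mitosis stands lowest and STAT5 targets stand highest by median.

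Several of the largest changes lay outside these groups. Serpina3g, a serine protease inhibitor that cytokines induce in leukocytes (chromosome 12, 105452753 to 105480144), stood at 9.24, 7.24, 9.23 and 10.1 FPKM at 6 h and 222, 221, 229 and 205 FPKM at 48 h, 24.5 times higher at 48 h and the largest rise (log2 change 4.47, SE 0.077, limma adjusted p = 6.56e-15). Slpi, an inhibitor of leukocyte elastase and cathepsin G, stood at 6.58, 6.56, 7.52 and 6.67 FPKM at 6 h and 65.8, 61.1, 62 and 75.4 FPKM at 48 h. The neighbours Cyp4a12a and Cyp4a12b, fatty acid hydroxylases, went from 19.5 ± 1.41 to 273 ± 22.6 FPKM and from 8.12 ± 0.25 to 137 ± 11.2 FPKM. Rnase6, a secreted antimicrobial ribonuclease, rose from 16.2 ± 1.26 to 126 ± 5.41 FPKM, and Akr1c13, an aldo-keto reductase, from 125 ± 6.08 to 712 ± 35.8 FPKM. Cxcl12, a chemokine for Cxcr4-bearing cells, stood at 0.251, 0.871, 0.446 and 0.534 FPKM at 6 h and 8.75, 8.63, 8.42 and 8.43 FPKM at 48 h. Serpina3g, the Cyp4a12 genes and Akr1c13 have near-identical copies, with which reads may be shared.

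Among the falls, Penk, the precursor of enkephalin opioid peptides (chromosome 4, 4060682 to 4065592), stood at 19.9, 21.4, 25.1 and 21.04 FPKM at 6 h and 0.498, 1.61, 1.74 and 0.844 FPKM at 48 h. Rln3, a relaxin, went from 12.9 ± 1.67 to 0.891 ± 0.143 FPKM, Ephx1, an epoxide hydrolase, from 26.8 ± 1.05 to 3 ± 0.192 FPKM, Pxmp2, a peroxisomal membrane channel, from 15.6 ± 1.35 to 1.32 ± 0.328 FPKM, and Caly, a trafficking protein, from 17.8 ± 1.47 to 1.76 ± 0.375 FPKM. H2-Q8, a class I gene of antigen presentation with near-identical copies, stood at 24.7, 16.5, 15.95 and 16.5 FPKM at 6 h and 3.63, 0.74, 0.885 and 2.08 FPKM at 48 h, and Cd74, the class II invariant chain, at 19.9, 18.8, 19.01 and 20.98 FPKM at 6 h and 3.56, 6.22, 6.35 and 4.6 FPKM at 48 h. H2-Ab1, a class II chain chosen after its values were seen, overlapped and did not pass (from 12.96 ± 0.88 to 11.6 ± 1.47 FPKM, log2 change -0.15, limma adjusted p = 0.0974), although it passed as lower without replicate 1 at 6 h (-0.20), without replicate 2 at 48 h (-0.23) and after scaling to the same sum (-0.24) or length correction (-0.34). Of the macrophage markers, Cd68, which mast cells also express, fell from 22.2 ± 1.15 to 3.78 ± 0.672 FPKM, while Lyz2, lysozyme, rose from 15.4 ± 3.8 to 23.5 ± 8.14 FPKM with overlapping sets (limma adjusted p = 0.022). The call of Lyz2 was lost in 8 alternative settings, among them leaving out replicate 2 or 3 at 6 h or replicate 3 or 4 at 48 h. Il7r, a lymphoid marker, fell from 4.1 ± 0.507 to 0.245 ± 0.0607 FPKM. The summed dendritic cell and lymphoid markers given above were lower in every 48 h library and the summed macrophage markers overlapped, and the share of other cells in these changes was not tested.

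The step from 6 h to 48 h in the treated libraries, each set with its own compound, was only partly like the vehicle step. Its 4874 higher and 2151 lower genes became 3232 higher and 3611 lower after each library was centred on its median, so the balance of directions there rests on the scaling. The counts of gene lists in the treated step were not repeated under other scalings. Across 8149 genes the log2 changes of the vehicle and treated steps had a Pearson r of 0.383 and a Spearman rho of 0.273, as a description over genes that share the libraries. Of 4926 genes past both tests 3100 (62.9%) had the same direction. The steps differed by the interaction test in 6750 of 8896 genes (75.9%), so a difference for a single gene is common. Glutamate and NS102 add to time and medium there, and the step alone does not tell what each adds. Each compound does have vehicle libraries of its own time. Kit, for example, stood at 397 FPKM with vehicle and 191 FPKM with glutamate at 6 h. At 48 h it stood at 257 FPKM with vehicle and 416 FPKM with NS102.

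The STAT5 targets and the mitosis genes had medians of the same sign in both steps. All 13 STAT5 targets rose in the treated step (median log2 change 1.22), where 57.6% of all genes tested were higher. Socs1 rose there from 13.4 ± 0.525 to 149.6 ± 6.87 FPKM. Of 35 mitosis genes 32 fell and 2 rose in the treated step (median -1.95). Prss34, Hdc, Mcpt4 and Phgdh fell in both steps, by log2 changes of -4.90, -3.53, -1.95 and -3.18 with vehicle and -6.00, -3.20, -1.73 and -4.19 with compounds.

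Other genes went opposite ways. Penk, close to lost in the vehicle libraries, went from 24.6 ± 3.58 to 41.9 ± 4.72 FPKM in the treated ones (difference of log2 changes -4.18, limma interaction adjusted p = 5.61e-12). Tpsab1 went from 234 ± 3.89 to 392 ± 51.4 FPKM there and Kit from 191 ± 13.1 to 416 ± 28.4 FPKM, both higher at 48 h (differences -3.17 and -1.75, limma interaction adjusted p = 3.98e-15 and 1.12e-10). Ccl1 rose from 57.9 ± 3.8 to 255 ± 24.9 FPKM.

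**Figure D5:**
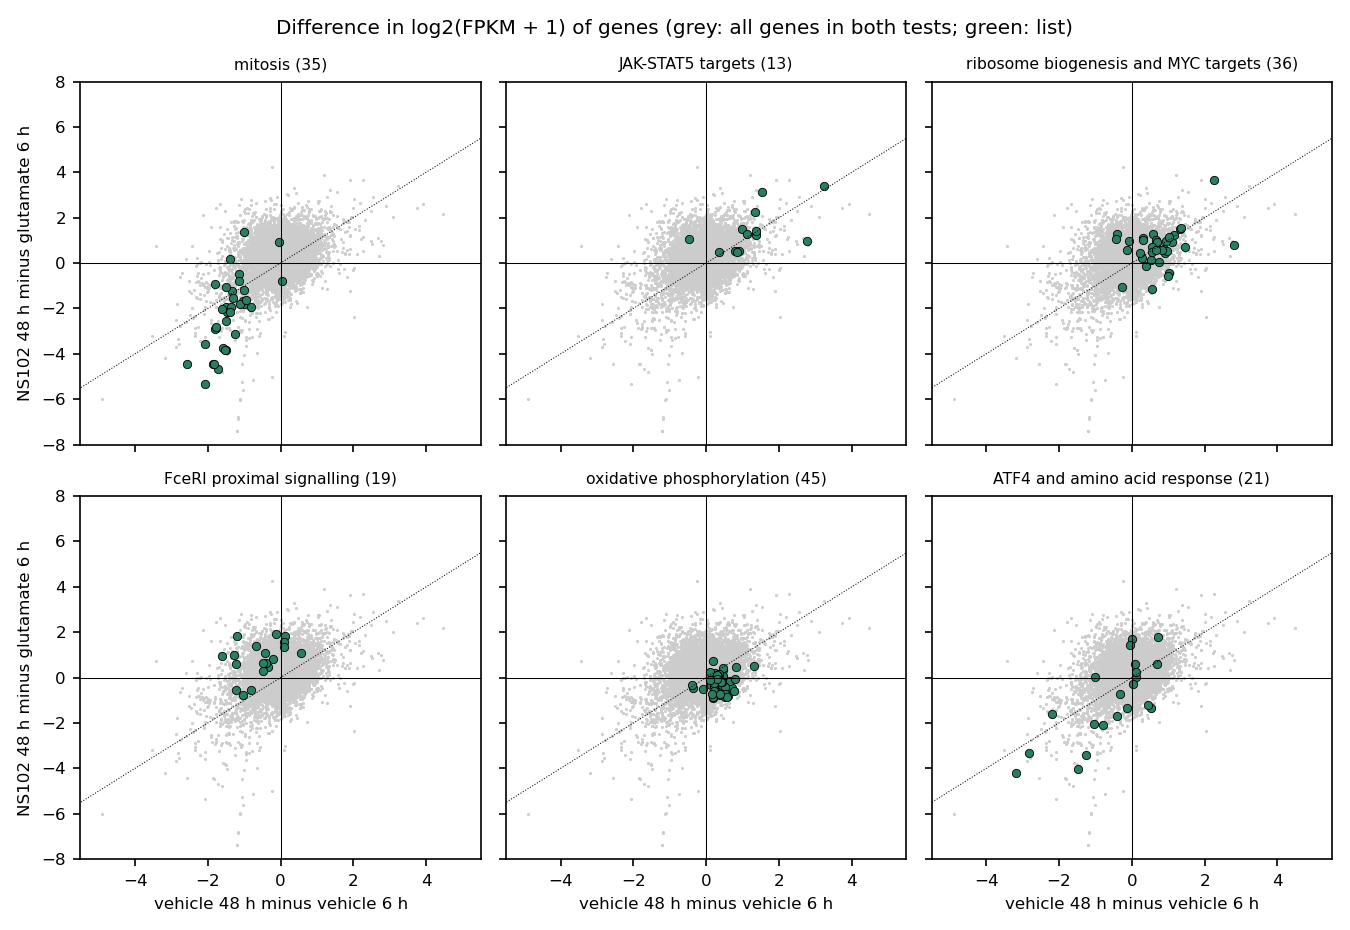
Difference in log2(FPKM + 1) from 6 h to 48 h in vehicle libraries (x axis) and in treated libraries, NS102 at 48 h against glutamate at 6 h (y axis), with all 8149 genes in grey, 6 gene lists in green and the line of equal change dotted. Mitosis genes lie mostly low on both axes and STAT5 targets mostly high on both, while FceRI signalling genes lie mostly left of 0 and above 0 and oxidative phosphorylation genes mostly right of 0 and mostly below 0.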

How the data were processed

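RNA sequencing values of 8 libraries were compared, with 8 treated libraries beside them. The authors deposited FPKM values, made with STAR and Cufflinks on build mm9 per the submitters' processing notes, with no versions; the annotation, filters, any further scaling and the medium of the 48 h cultures are not given in the sources used here. The header names no unit and the values behave as FPKM. Single and paired end libraries are mentioned in the labels without saying which sample was which.

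Values were taken as log2(FPKM + 1) with no further scaling. The test took every gene that reached 1 FPKM in 4 or more of the 8 libraries and was run with limma 3.58.1 (R 4.3.3, mean-variance trend, two-sided, no replicate block), with Benjamini-Hochberg adjustment over all genes tested. The interaction took all 16 libraries. A symbol at several loci kept its name at the locus of highest mean.

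Members and gene lists were chosen with earlier results of these data known. Named genes were up to 12 per direction with the largest change among genes past the test, without overlap and with at least 5 FPKM in the higher set, plus 12 mast cell genes whatever their p, plus list members in order of p (up to 4 in a list's main direction and 2 in the other). Predicted genes and small RNAs were left out. Some named genes are not reported here. Cish, Ccnb2, Tph1 and H2-Ab1 were added after their values were seen. Lists were described by counts and medians, with no test. For length correction the longest GENCODE M21 transcript of a symbol was used (93.9% of tested genes), with a lowess trend (span 0.5) removed per library. Alternatives were other pseudocounts, filters, scalings and limma settings, a replicate block and each library left out; length correction, the treated step without pairs of NS102 libraries or with a block, and the interaction under other scalings were added after seeing the data. Depth is unknown, so no counting interval is given. Replicate numbers were not taken to pair the sets. Promoter patterns were searched in RefSeq windows (GRCm38.p6) with Python 3.11.15 and pandas 2.3.3, and figures were drawn in matplotlib 3.10.9 with numpy 2.4.6.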

Additional observations from a re-analysis of the deposited data

Results flagged for a closer look

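Of 292 sets of 4 libraries searched (146 named genes at 2 times), 19 had 1 library far from the other 3 by Dixon's test; chance gives about 1 in 20. At 48 h, replicate 1 was the high library for Alox5 (578 FPKM, the others 502 to 511), Bhlhe40 (155, the others 131 to 134), Junb (26.2, the others 22.2 to 22.8), Kit (304, the others 236 to 245), Pik3ip1 (41.5, the others 33.7 to 34.2), Slc30a2 (31, the others 28.4 to 28.7) and Stat5b (15.9, the others 13 to 13.3). Replicate 3 at 48 h was low for Ccl1 (5.71 FPKM, the others 10.1 to 10.8) and high for Ccl2 (393, the others 364 to 368). Replicate 4 at 48 h was low for Slc3a2 (136 FPKM, the others 143 to 145) and Snap23 (124, the others 140 to 143) and high for Ltc4s (39, the others 35.4 to 36).

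At 6 h, replicate 1 was high for H2-Q8 (24.7 FPKM, the others 16 to 16.5) and low for Rnase6 (14.4, the others 16.7 to 17) and H2-Ab1 (11.6, the others 13.3 to 13.5). Replicate 2 was high for Dusp6 (1.14 FPKM, the others 0.71 to 0.757) and Phgdh (17.5, the others 15.7 to 15.8). Replicate 3 was high for Slpi (7.52 FPKM, the others 6.56 to 6.67) and low for Mrgprb1 (92.7, the others 102 to 103). Of these 19 genes 18 kept their call without each library in turn, and H2-Ab1 passed as lower only without replicate 1 at 6 h or replicate 2 at 48 h.

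The step from 6 h to 48 h of Penk went down with vehicle and up with the compounds, and the 2 steps differed by -4.18 on the log2 scale in limma's interaction test.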

How the results depend on the processing

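Leaving out each library in turn gave 5771 to 6088 genes past limma's test in the vehicle comparison, 2733 to 2988 of them higher and 3020 to 3281 lower. The replicate block gave 6319 genes, 3015 higher and 3304 lower, and changed the call of 1 of 146 named genes (H2-Ab1, log2 change -0.15, limma adjusted p = 0.0416). Deviations of same-numbered libraries correlated at 0.463, -0.0698, 0.197 and 0.114, 3 of 4 pairs over 0.1, and 3 of 8 libraries correlated best with their own number; since 1 pair was not over 0.1 and the labels name no shared source, the numbers were not taken to pair the sets. A filter at 5 FPKM tested 5045 genes and called 3888, fewer by its construction. Of these calls 2118 were higher and 1770 lower, so the balance turned towards higher. The median log2 change was 0.05 under that filter. Scaling moved the split: 2473 higher and 3588 lower with equal sums, 2399 and 3738 without the 50 most abundant genes, 3486 and 2784 after median centring. In the treated step median centring gave 3232 higher and 3611 lower. For vehicle against treated step the main counts were 2076 higher and 4674 lower, against 1276 higher with equal sums and 4096 higher and 2716 lower after median centring; the cause was not tested.

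Of 3053 values of named genes under alternatives, 3019 kept direction and call, 16 lost the call and 9 gained it with the same sign. The other 9 changed sign or went to 0: Mitf in 5 settings (-0.058 with equal sums, -0.079 without the 50 most abundant genes, -0.0034 with array weights, and 2 that leave out a library, where it ran from -0.035 to 0.045), Tph1 in 3 (0.072 after median centring, 0.089 after length correction, and without replicate 4 at 48 h, where leaving out a library gave -0.023 to 0.0098) and Tpsb2, at 0 after quantile normalization. That 0 follows from an equal rank in every library. Of 1554 list counts under alternatives 88 moved by over 1.5 times.

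The deposited values carry no counts, so low genes have no counting error here. Time, medium, vehicle and culture set coincide, and no alternative separates them.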
